A study of Mus musculus with 2 samples.

Results

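The genes described here are 8 members of the complement system, *C1qa*, *C1qb*, *C1qc*, *C3*, *C4b*, *C3ar1*, *C5ar1* and *Itgam*, taken by symbol from the 32285 genes counted in single-nucleus RNA sequencing of the mouse hippocampus. All 8 were found. PS19 and PZKO mice gave 1 library each, for which the hippocampi of 5 males, 9 months old, were pooled. PS19 mice (PS19 Zbp1-WT in the labels) carry a transgene for human tau with the P301S mutation under the mouse prion protein promoter and have intact *Zbp1*. PZKO mice (PS19 Zbp1-KO) carry the same transgene on a *Zbp1* knockout. Mice without the transgene were not analysed here, so both groups share the tau background. The question that the comparison addresses is whether glial gene expression in tauopathy differs without ZBP1, a sensor of nucleic acids in the Z conformation. Since each genotype has a single library, no test between genotypes was made, and every interval below covers counting error only.

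Complement is a cascade of plasma and tissue proteins that marks targets for removal by phagocytes. C1q, assembled from the chains of *C1qa*, *C1qb* and *C1qc*, starts the classical pathway, in which C4 and then C3 are cleaved and their fragments bind to surfaces. Microglia read these fragments through receptors such as CR3, whose alpha chain CD11b is the product of *Itgam*, while the released peptides C3a and C5a act on the receptors encoded by *C3ar1* and *C5ar1*. In the brain C1q is known as a microglial product, and complement has been linked to the removal of synapses in development and in neurodegeneration.

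The C1q genes lie side by side on the minus strand of chromosome 4 (build mm10, GENCODE M21), *C1qb* at 136880129 to 136886187, *C1qc* at 136889804 to 136893065 and *C1qa* at 136895917 to 136898803. The promoters of *C1qb* (chr4:136886151-136886450), *C1qc* (chr4:136892865-136893164) and *Itgam* (chr7:128062390-128062689, plus strand) are printed to show genes counted mostly in microglia. No promoter of *C1qa* or *C4b* was matched. The printed promoters run from 250 bases before to 50 bases after the gene start that RefSeq gives for build GRCm38.p6. They are written 5′ to 3′ on the gene's strand. For *C1qb* and *C1qc* the RefSeq start differs from the GENCODE start given above. Capitals mark AGGAAG or its reverse complement CTTCCT, letters found within sites of ETS factors such as PU.1, which were chosen with these sequences in view.
*C1qb*: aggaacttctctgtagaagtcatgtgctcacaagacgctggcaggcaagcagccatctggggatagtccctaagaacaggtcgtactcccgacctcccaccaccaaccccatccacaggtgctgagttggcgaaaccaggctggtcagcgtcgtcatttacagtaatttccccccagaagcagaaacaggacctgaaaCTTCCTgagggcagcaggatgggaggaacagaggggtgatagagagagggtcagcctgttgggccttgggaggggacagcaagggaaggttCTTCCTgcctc
*C1qc*: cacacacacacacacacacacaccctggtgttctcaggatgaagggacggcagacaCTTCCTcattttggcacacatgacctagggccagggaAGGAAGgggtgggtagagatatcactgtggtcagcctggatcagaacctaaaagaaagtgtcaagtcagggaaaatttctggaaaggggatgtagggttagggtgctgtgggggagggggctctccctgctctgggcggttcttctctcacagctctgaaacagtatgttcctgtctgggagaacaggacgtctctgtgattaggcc
*Itgam*: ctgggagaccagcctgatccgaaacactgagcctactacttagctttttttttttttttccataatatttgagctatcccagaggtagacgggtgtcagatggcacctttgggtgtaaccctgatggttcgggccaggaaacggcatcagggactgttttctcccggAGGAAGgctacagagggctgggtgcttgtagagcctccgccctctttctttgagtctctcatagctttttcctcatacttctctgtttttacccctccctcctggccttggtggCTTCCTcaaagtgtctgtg
RefSeq promoters were matched for 6 of the 8 genes, and 5 of the 6 held these letters on either strand, *C3* being the exception. Of all 32851 promoters of this length, 35.4% held them. A match of this kind is a description of the sequence and no evidence of binding.

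After filtering and removal of doublets, 9590 PS19 nuclei and 9307 PZKO nuclei were kept, with medians of 5849 and 9022 UMIs (unique molecular identifiers, the counted transcripts). The nuclei fell into 33 clusters, of which 27 were named from marker genes as 14 classes, and 6.96% of PS19 nuclei and 7.26% of PZKO nuclei stayed unnamed. Microglia, in which all 9 markers were detected in both libraries, numbered 949 nuclei in PS19 (3272430 UMIs, median 3313 per nucleus) and 754 nuclei in PZKO (3349426 UMIs, median 4180). The libraries shared 47 barcodes. Of *Zbp1* itself 92 UMIs were counted in PS19 against 38 in PZKO (log2 ratio −1.87, −2.46 to −1.31). Whether the counted 3′ ends lie in the deleted stretch was not tested. *Ttr*, which choroid plexus cells transcribe, had 413 CPM (UMIs of a gene per 1000000 UMIs) in PS19 and 57.4 CPM in PZKO over all nuclei kept, while *Mapt* had 467 and 461 CPM.

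The C1q genes and *Itgam* had their highest mean level over both libraries in microglia, with the small class of macrophages next. For *C3ar1* and *C5ar1* the mean was highest in macrophages and next in microglia. For *C3ar1* that order was set by PS19, and for *C5ar1* both classes lay close together in PZKO. In PZKO *C3ar1* had 44.8 CPM in macrophages, from 3 UMIs, against 105 CPM in microglia, and *C5ar1* 29.9 CPM, from 2 UMIs, against 28.4 CPM. *C4b* had its highest mean in oligodendrocytes, followed by astrocytes and macrophages, whose intervals overlapped, an order also set by PS19. In PZKO *C4b* had 373 CPM in macrophages, from 25 UMIs, 287 CPM in astrocytes and 264 CPM in oligodendrocytes. *C3* was highest in ependymal cells. A level here is the sum of a gene's UMIs over the nuclei of a class and library, in CPM of that class. Since nuclear 3′ counts depend on a gene's introns and ends, levels were compared between classes and libraries and not between genes.

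**Figure D1:**
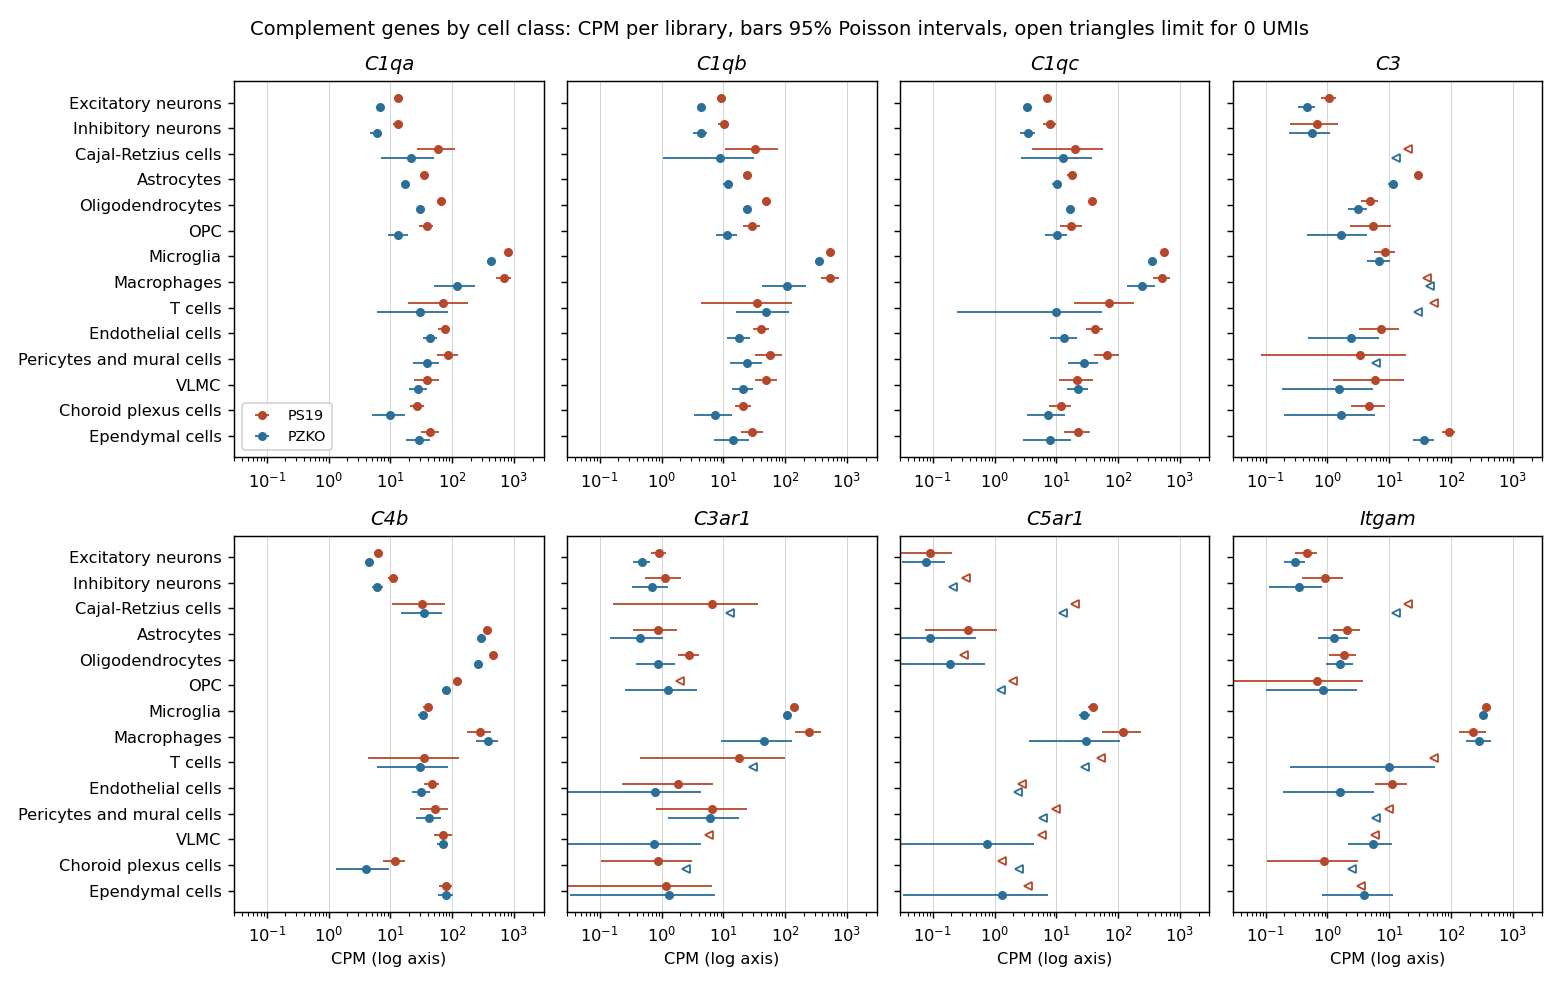
Level of each complement gene in each cell class, in CPM on a log axis, with 1 point per library (PS19 and PZKO) and 95% Poisson intervals; open triangles give the limit that 3 counts set where no UMI was counted. *C1qa*, at 787 CPM in PS19 microglia and 419 CPM in PZKO microglia, stands far above its level in excitatory neurons (13.3 and 6.72 CPM), and *C4b* lies between 264 and 464 CPM in oligodendrocytes, astrocytes and macrophages.

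In microglia the C1q chains were lower in PZKO. For *C1qa*, the A chain, the level was 787 CPM in PS19 from 2576 UMIs against 419 CPM in PZKO from 1404 (log2 ratio of PZKO over PS19 −0.91, 95% interval −1.0 to −0.81). For *C1qb*, the B chain, it was 528 CPM (1728 UMIs) against 346 CPM (1160 UMIs), at a log2 ratio of −0.61 (−0.72 to −0.50). For *C1qc*, the C chain, it was 552 CPM (1807 UMIs) against 359 CPM (1201 UMIs), at a log2 ratio of −0.62 (−0.73 to −0.52). The interval of the *C1qa* ratio lay below those of the other chains. *C1qa* made up 42.2% of the C1q UMIs of PS19 microglia (exact binomial interval 40.9% to 43.4%) and 37.3% of those of PZKO microglia (35.7% to 38.9%). Summed over the chains, C1q came to 1867 CPM in PS19 and 1124 CPM in PZKO (log2 ratio −0.73, −0.79 to −0.67). *C1qa* is among the genes that the study names as lower, from these very libraries, and its direction is therefore no independent evidence.

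The receptors were lower in PZKO microglia too, and whether their ratios differ from those of the C1q chains was not tested. *C3ar1* (chromosome 6, 122847138 to 122856161, minus strand), the C3a receptor, stood at 141 CPM in PS19 from 463 UMIs and at 105 CPM in PZKO from 352 (log2 ratio −0.43, −0.63 to −0.23). *C5ar1* (chromosome 7, 16246743 to 16259540, minus strand), the C5a receptor, stood at 38.8 CPM from 127 UMIs and at 28.4 CPM from 95 (log2 ratio −0.45, −0.85 to −0.06). *Itgam* (chromosome 7, 128062640 to 128118491, plus strand) stood at 365 CPM from 1194 UMIs and at 325 CPM from 1087, and its log2 ratio of −0.17 (−0.29 to −0.05) was the nearest to 0 among the members. Its Poisson intervals, 344 to 386 CPM in PS19 and 306 to 344 CPM in PZKO, met at their ends. Of the receptor genes outside the 8, *Itgax*, the alpha chain of CR4, had 180 and 126 CPM (log2 ratio −0.52, −0.70 to −0.33). The study also names *Itgax* as lower, from these libraries. *Itgb2*, the beta chain that both integrins share, had 87.7 and 79.7 CPM (−0.14, −0.38 to 0.11). *C5ar2*, a further C5a receptor, had the only positive log2 ratio of the 6 receptor genes with enough UMIs, 0.48, with an interval that crossed 0 (−0.04 to 1.01).

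*C3* and *C4b*, the substrates of the cascade, were counted sparsely in microglia. For *C3* 28 UMIs were counted in PS19 against 23 in PZKO (log2 ratio −0.32, −1.18 to 0.53), and a difference was not detectable at this depth. *C4b* had 131 and 113 UMIs (−0.25, −0.62 to 0.13), and microglia held 1.58% and 1.61% of its UMIs in named classes. Its level in microglia was 40.0 and 33.7 CPM, against 464 and 264 CPM in oligodendrocytes. Whether its microglial UMIs came from free RNA was not tested.

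Taking the 8 genes as a list, all 8 log2 ratios in microglia were below 0, with a median of −0.44. Of the 8 intervals 6 lay below 0 and none above, beside 12.6% and 10.8% of all genes tested in microglia. The 3 C1q genes were lower by at least 0.5 on the log2 scale and none of the 8 was higher by that much. Among all 10657 genes with at least 50 UMIs in microglia, 8.68% were lower and 4.70% higher by at least 0.5, and the median log2 ratio was −0.02. Short genes stood lower as a whole. Genes under 10 kb, to which the C1q genes (2.89 to 6.06 kb) and *C3ar1* (9.02 kb) belong, had a median of −0.23, and 22.2% of them were lower by at least 0.5, against 2.73% of genes over 50 kb, a range that includes *Itgam* (55.9 kb). Cytosolic ribosomal protein genes had a median of −0.45 and mitochondrially encoded genes of −0.58 in microglia. Of 16 disease-associated microglia genes 7 were lower by at least 0.5 (median −0.46), and of 10 homeostatic genes none was (median 0.08). Markers of other cells in microglia differed as well. The 8 choroid plexus markers came to 813 CPM in PS19 microglia, with *Otx2* at 0, and to 103 CPM in PZKO microglia, with *Aqp1* and *Kcne2* at 0. These sums were mostly *Ttr*, which alone stood between 640 and 1012 CPM in the main microglial states of PS19 described below. In PZKO it stood between 65.9 and 135 CPM in them. The choroid plexus class itself had 261 nuclei in PS19 and 94 in PZKO. The 9 oligodendrocyte markers came to 1076 and 875 CPM in microglia, and the 8 macrophage markers to 209 and 166 CPM, with *Lyve1* at 0 in PZKO. Other sets were close or higher in PZKO. The 7 markers of monocytes and neutrophils came to 615 and 584 CPM, with *S100a8*, *S100a9* and *Retnlg* at 0 in both libraries. *Ly6c2* was at 0 in PZKO as well. The 10 astrocyte markers came to 879 and 869 CPM and the 9 markers of excitatory neurons to 267 and 285 CPM. The 6 B cell markers came to 1.53 and 10.2 CPM, with UMIs for 3 of them in PS19 and 4 in PZKO. The 9 T cell markers came to 0.917 and 2.69 CPM, with UMIs for 3 and 5. The part of gene length, of transcripts of other cells and of depth in the complement ratios was not tested.

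The C1q difference was not spread evenly over the nuclei. Mitochondrially encoded transcripts, which are made outside the nucleus, took a median of 0.572% of the UMIs of a PS19 microglial nucleus and 0.475% in PZKO. In the 692 PS19 and 612 PZKO microglia with at most 1% mitochondrial UMIs, C1q came to 1385 and 1107 CPM (log2 ratio −0.32, −0.39 to −0.25). In the 257 PS19 and 142 PZKO microglia above 1% it came to 3331 and 1217 CPM (−1.45, −1.58 to −1.33). The bins were drawn after a stricter filter had been seen to move the ratio.

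**Figure D2:**
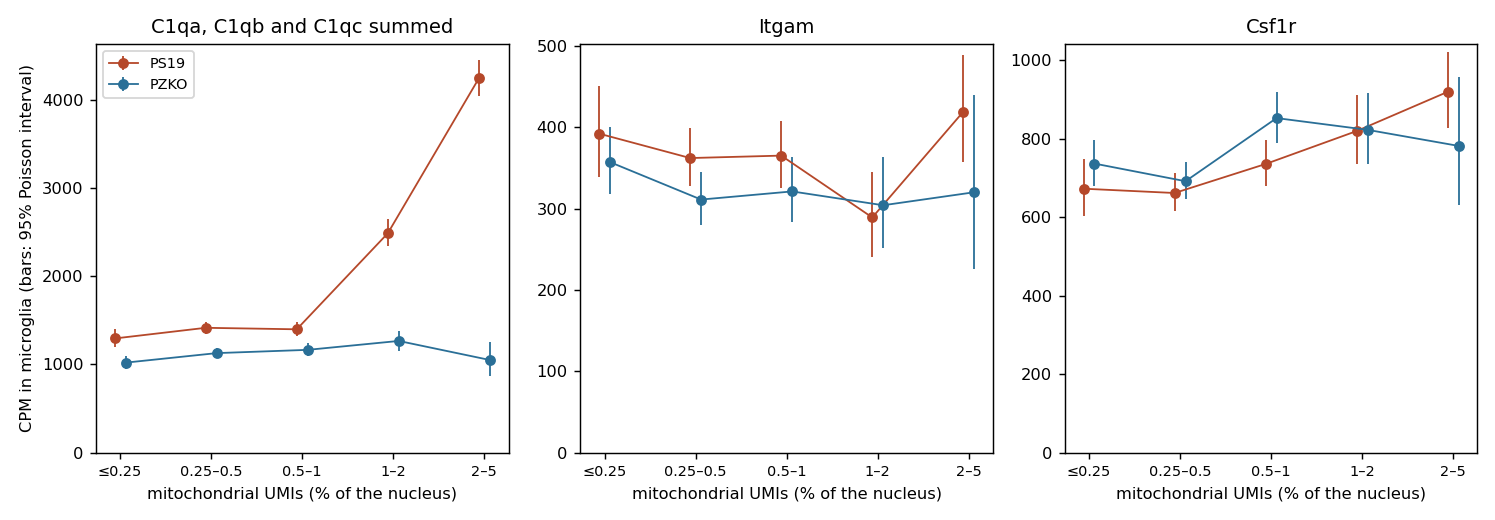
Level in microglia (CPM, 95% Poisson intervals) of the C1q chains summed, *Itgam* and *Csf1r* in nuclei grouped by the share of mitochondrial UMIs (percent, 5 groups), for each library. C1q in PS19 goes from 1295 CPM in the lowest group to 4245 CPM in the highest, while in PZKO it stays between 1021 and 1267 CPM; *Csf1r* stays between 662 and 920 CPM in both libraries.

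Within PS19 the C1q level went with the mitochondrial share, and C1q was not alone in this. *Apoe*, the apolipoprotein E gene, went from 2121 CPM in the lowest group to 8431 CPM in the highest in PS19. In PZKO it went from 1277 to 1253 CPM (log2 ratio −2.75 in the highest group). The study also names *Apoe* as lower in PZKO microglia, from these libraries. Ribosomal protein genes together went from 6545 to 16450 CPM in PS19 and from 5466 to 13542 CPM in PZKO. C1q in PS19 was at 1295 CPM in nuclei with up to 0.25%, 1416 and 1399 CPM in the next groups up to 0.5% and up to 1%, 2488 CPM between 1% and 2% and 4245 CPM between 2% and 5%. In PZKO the same groups had 1021, 1129, 1166, 1267 and 1051 CPM. The log2 ratio was −0.34, −0.33 and −0.26 in the first 3 groups, −0.97 in the group above 1% and −2.01 (−2.29 to −1.75) in the group above 2%. That last group had 110 PS19 nuclei, 11.6% of PS19 microglia with 27.0% of their C1q UMIs, and 35 PZKO nuclei, 4.64% of PZKO microglia with 3.32% of theirs.

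Most nuclei of both libraries carried similar numbers of C1q UMIs, and the tails differed. The median was 4.0 UMIs per nucleus in each library, and 4.85% of PS19 and 4.91% of PZKO microglia had none. In PS19, 54 nuclei (5.69%) had 20 or more C1q UMIs and together held 26.0% of all C1q UMIs of the class, and 45 of the 54 lay above 1% mitochondrial UMIs. In PZKO, 7 nuclei (0.928%) had 20 or more, with 4.99% of the UMIs. Relative to each nucleus's own total, which was larger in PZKO, the median level was 1314 CPM in PS19 and 1010 CPM in PZKO. What set the high nuclei of PS19 apart was not tested.

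With the nuclei limited to at most 1% mitochondrial UMIs, none of the 8 genes was lower by at least 0.5, while 8.74% of the 9944 genes tested there were. *C1qa* had a log2 ratio of −0.39 (−0.51 to −0.28) in these nuclei, *C1qb* of −0.25 (−0.38 to −0.12) and *C1qc* of −0.31 (−0.44 to −0.19), so the intervals of the chains stayed below 0 and overlapped. *C3ar1* (−0.37, −0.59 to −0.14) and *Itgam* (−0.17, −0.31 to −0.04) had ratios close to those in all microglia. The interval of *C5ar1* crossed 0 in these nuclei (−0.33, −0.76 to 0.10), and under a stricter filter of the nuclei its ratio was −0.09. Above 1%, *C1qa* had −1.68, *C1qb* −1.33 and *C1qc* −1.23, whereas *Itgam* had −0.19 (−0.48 to 0.09). *Csf1r*, the receptor that microglia need for survival, had 868 and 814 CPM above 1% (−0.09, −0.27 to 0.08), and cytosolic ribosomal protein genes together had a log2 ratio of −0.43 there and −0.28 below.

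**Figure D3:**
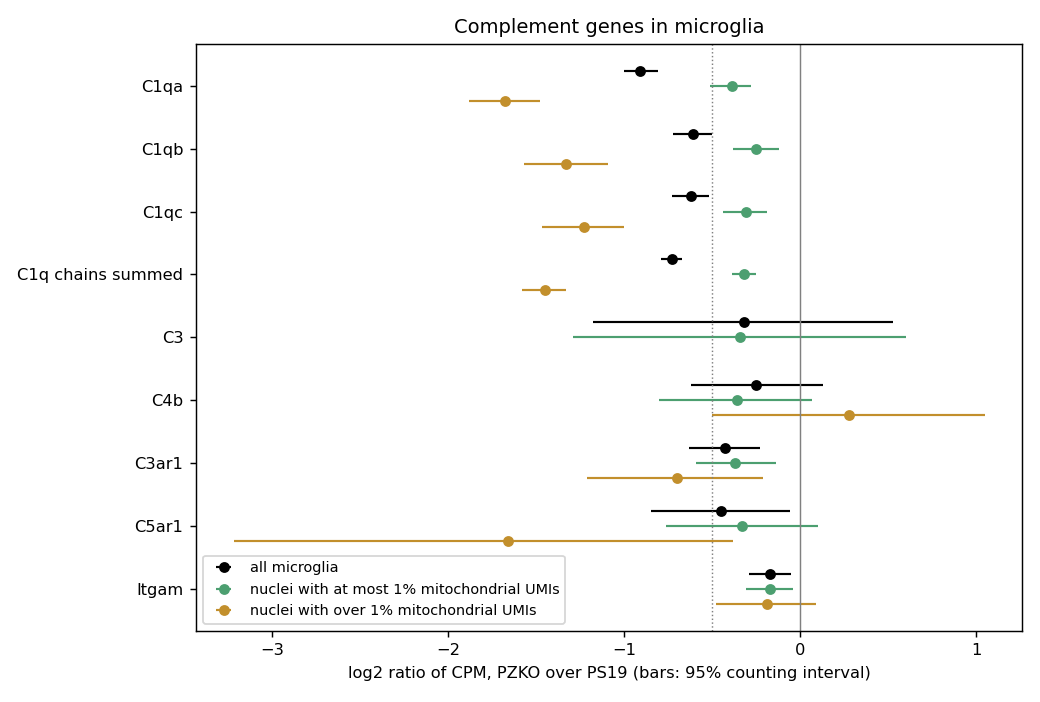
Log2 ratio of the level in microglia, PZKO over PS19, with 95% counting intervals, for each complement gene and the C1q chains summed, in all microglia and in nuclei up to and over 1% mitochondrial UMIs; the solid line marks 0 and the dotted line −0.5. The C1q sum lies at −0.73 in all microglia, at −0.32 in nuclei up to 1% and at −1.45 above, while *Itgam* lies at −0.17 and −0.19 on either side.

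Microglia were clustered again, without complement genes among the variable genes, into 5 main states and a sixth of 12 nuclei that was left out. States 2, 3 and 4 were named from fixed markers as homeostatic-like, disease-associated-like and interferon-responsive-like. *Gpnmb* led state 3, and state 4 also had the cycling gene *Top2a* first among its leading genes. State 0, led by *Ctnna3*, *Cd74* and *Csf1*, and state 1, led by *Gas6* and with *Ttr* among its leading genes, stayed unnamed. Of PS19 microglia, 31.7% were in state 0, 32.1% in state 1, 16.8% in state 2, 12.5% in state 3 and 6.43% in state 4, against 36.7%, 15.1%, 30.6%, 6.23% and 10.2% of PZKO microglia.

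Over all their nuclei, the 4 states with at least 50 nuclei per library had less C1q in PZKO, but in the interferon-responsive-like state this rested on few nuclei. Summed over the chains it came to 1755 CPM in PS19 and 1100 CPM in PZKO in state 0 (log2 ratio −0.67, −0.77 to −0.58), and to 2181 and 1207 CPM in state 1 (−0.85, −1.01 to −0.70). It came to 1362 and 1146 CPM in the homeostatic-like state (−0.25, −0.39 to −0.11) and to 1580 and 1280 CPM in the interferon-responsive-like state (−0.30, −0.50 to −0.11). In that last state the order turned in nuclei with at most 1% mitochondrial UMIs, with 1110 CPM in PS19 (240 UMIs, 50 nuclei) and 1311 CPM in PZKO (426 UMIs, 66 nuclei), while the 11 PS19 nuclei above 1% had 4125 CPM and the 11 PZKO nuclei 1099 CPM. In states 0, 1 and 2 nuclei up to 1% had 1344, 1638 and 1238 CPM in PS19 against 1098, 1208 and 1089 CPM in PZKO. Whether the chains differ from each other within a state was not tested. In the homeostatic-like state *C1qa* was at 445 and 438 CPM (−0.02, −0.26 to 0.22). *C1qc* was at 493 and 376 CPM there (−0.39, −0.63 to −0.15), and the 2 intervals overlapped. The disease-associated-like state, with 119 PS19 and 47 PZKO nuclei, had 2360 CPM of C1q in PS19 and 909 CPM in PZKO. In its nuclei up to 1% C1q was at 1547 CPM in PS19 (80 nuclei) and 925 CPM in PZKO (45 nuclei). Above 1% it had 39 PS19 nuclei, at 3906 CPM, and 2 PZKO nuclei. The share of nuclei above 1% mitochondrial UMIs was 32.8% in PS19 and 4.26% in PZKO in that state, 40.3% and 30.7% in state 1, and 20.1% and 24.2% in the homeostatic-like state.

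The ratio of *C3ar1* had opposite signs in different states, a difference that was not tested. It was at 159 CPM in PS19 and 110 CPM in PZKO in state 0 (−0.52, −0.84 to −0.21), and at 58.1 and 95.4 CPM in the homeostatic-like state, where 29 and 91 UMIs gave a log2 ratio of 0.72 (0.10 to 1.37). In PS19 its level in the disease-associated-like state, 239 CPM from 109 UMIs, was the highest of the states. *Itgam* had log2 ratios between −0.45 and −0.17 in the 4 states compared.

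**Figure D4:**
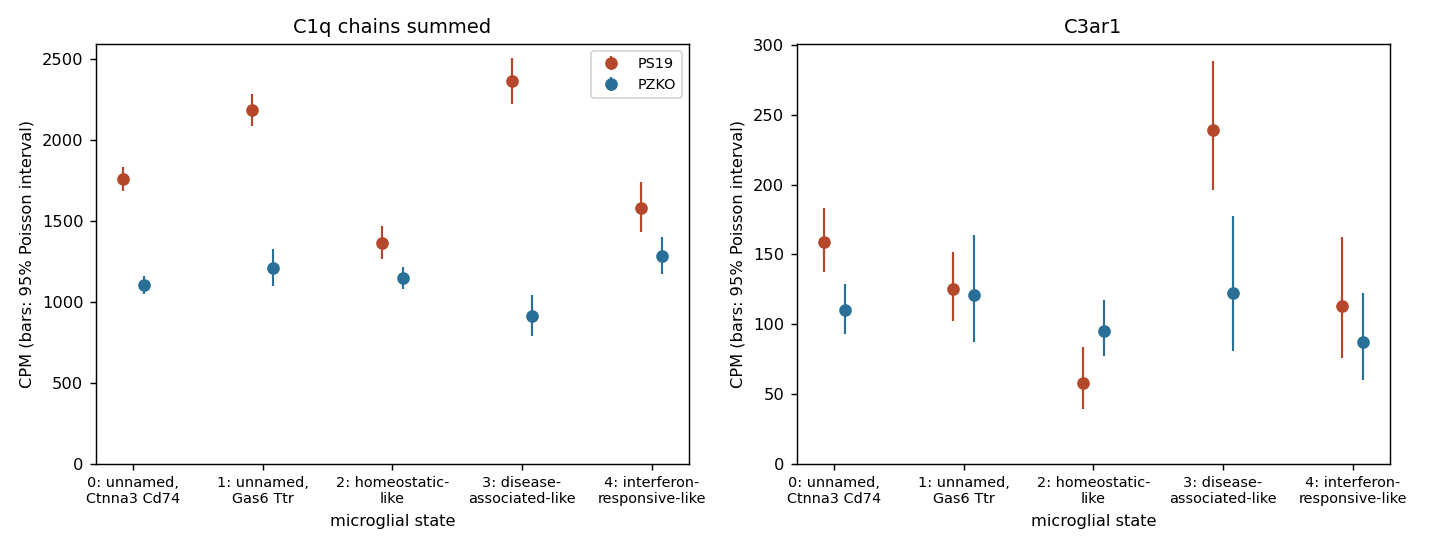
Level (CPM, 95% Poisson intervals) of the C1q chains summed and of *C3ar1* in 5 microglial states for each library. Over all nuclei C1q is higher in PS19 in the 5 states shown, though not in the interferon-responsive-like state once nuclei above 1% mitochondrial UMIs are left out, with 2360 and 909 CPM in the disease-associated-like state and 1362 and 1146 CPM in the homeostatic-like state, and *C3ar1* is at 58.1 CPM in PS19 and 95.4 CPM in PZKO in the homeostatic-like state.

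Macrophages, a class of 28 PS19 and 22 PZKO nuclei, carried the C1q genes as well. Summed, the chains stood at 1733 CPM in PS19 from 129 UMIs and at 463 CPM in PZKO from 31 (log2 ratio −1.90, −2.52 to −1.33). *C3ar1* had 18 and 3 UMIs there, *C5ar1* 9 and 2, and *Itgam* 17 and 19, so that *Itgam* (log2 ratio 0.31, −0.71 to 1.35) did not share the low PZKO level. In so few nuclei, a shift in which macrophages were sampled cannot be told apart from a change within them.

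UMIs of the C1q genes were found in all 14 classes, T cells included (10 and 9 UMIs). In excitatory neurons, which are not known to make C1q, the chains came to 29.3 CPM in PS19 and 14.4 CPM in PZKO (−1.02, −1.13 to −0.92). The sum was at 75.9 and 39.7 CPM in astrocytes (−0.94, −1.12 to −0.76) and at 151 and 70.4 CPM in oligodendrocytes (−1.10, −1.23 to −0.97). In the deep excitatory nuclei (medians of 18652 and 28126 UMIs), 43.2% in PS19 and 33.8% in PZKO had a C1q UMI, against 95.2% and 95.1% of microglia (medians of 3313 and 4180). Thinned to 1500 UMIs per nucleus, 82.6% of 906 PS19 and 77.6% of 736 PZKO microglia had a C1q UMI, and 4.85% and 2.66% of excitatory neurons did. Microglia with all 3 chains made up 20.4% of thinned PS19 nuclei (17.8% to 23.2%) and 9.65% of thinned PZKO nuclei (7.61% to 12%).

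In the classes that held most of the C1q UMIs outside microglia, the chains came in similar proportions. *C1qc* gave 23.8% of the C1q UMIs of PS19 excitatory neurons, 24.6% in oligodendrocytes and 23.6% in astrocytes, below the 29.6% of PS19 microglia (28.4% to 30.7%). In PZKO it gave 23.0%, 23.5% and 25.7% in these classes and 31.9% in microglia (30.4% to 33.4%). The level of *C1qa* in PS19 excitatory neurons was 1.69% of that in microglia. Among 8 other genes of microglia under 20 kb this percentage ran from 0.122% to 12.2%, with a median of 0.965%. The highest was *Cst3*, which also stood at 103% of its microglial level in PS19 astrocytes. In oligodendrocytes the level of *C1qa* was 8.32% of the microglial one. Whether the C1q UMIs outside microglia came from free RNA was not tested. With the C1q genes counted, 5 of 6 members with at least 20 UMIs were lower by at least 0.5 in astrocytes. In oligodendrocytes 6 of 7 were, and in excitatory neurons 7 of 7. Of all genes with at least 20 UMIs, 14.1%, 12.4% and 11.6% were lower by as much in those classes. With at least 50 UMIs the shares were 11.4%, 9.43% and 9.31%. The levels in excitatory neurons were low, with *Itgam* at 0.462 CPM in PS19 and 0.301 CPM in PZKO. *C3ar1* stood at 0.907 and 0.480 CPM there and *C3* at 1.05 and 0.469 CPM. Whether the UMIs of these genes in excitatory neurons came from free RNA was not tested either.

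*C4b*, the mouse C4 gene, is known as a glial transcript that is raised in reactive astrocytes. It lies on chromosome 17 (34728380 to 34743882, minus strand), and near-identical sequence in its paralog *C4a*, with 82 PS19 and 141 PZKO UMIs over all nuclei kept, could have split its reads. In oligodendrocytes it stood at 464 CPM in PS19 (450 to 478, from 4314 UMIs) against 264 CPM in PZKO (254 to 274, from 2764), at a log2 ratio of −0.81 (−0.88 to −0.74). In astrocytes it stood at 371 CPM (358 to 384, from 3004 UMIs) against 287 CPM (278 to 298, from 3186), at a log2 ratio of −0.37 (−0.44 to −0.30). The order of these classes turned between the libraries, with oligodendrocytes above astrocytes in PS19 and below them in PZKO. Macrophages stood at 282 CPM in PS19 (175 to 431, from 21 UMIs) against 373 CPM in PZKO (242 to 551, from 25), at a log2 ratio of 0.40 (−0.49 to 1.31). The oligodendrocyte class joined clusters of 924 PS19 and 1225 PZKO nuclei, of 865 and 759, and of 788 and 270. The last of these was shallow, at a median of 0.364 of its library's depth. Whether *C4b* differed within each cluster was not tested. Since *C4b* in astrocytes was singled out as lower by the study on the same libraries, that direction is no independent evidence.

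Precursors of oligodendrocytes (OPC) had 120 and 80.4 CPM of *C4b* (−0.58, −0.89 to −0.28), excitatory neurons 6.40 and 4.49 CPM (−0.51, −0.72 to −0.30). In ependymal cells (79.0 and 78.3 CPM, −0.01, −0.54 to 0.51) and in cells of the vascular leptomeninges, VLMC (71.5 and 69.8 CPM, −0.03, −0.61 to 0.56), the libraries lay close together, within wide intervals. The oligodendrocyte ratio also went with the mitochondrial share of the nuclei. It was −0.44 (−0.60 to −0.27) in nuclei up to 0.25%, −0.80 between 0.5% and 1% and −1.31 (−1.61 to −1.03) between 2% and 5%, as the PS19 level went from 407 to 719 CPM and the PZKO level lay between 239 and 300 CPM. In astrocytes it was −0.04 (−0.20 to 0.12) up to 0.25% and between −0.51 and −0.30 in the other groups.

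*C3*, the central component of the cascade (chromosome 17, 57203970 to 57228136, minus strand), was highest in ependymal cells, which line the ventricles, at 90.8 CPM in PS19 (71.7 to 114, from 77 UMIs) against 36.5 CPM in PZKO (24.3 to 52.8, from 28), at a log2 ratio of −1.31 (−1.99 to −0.67). Fewer than 20 of these UMIs lay in ependymal nuclei with at most 1% mitochondrial UMIs, so the ependymal ratio could not be recomputed under that limit. Astrocytes held the largest share of the *C3* UMIs in named classes, 48.6% in PS19 and 46.3% in PZKO, at 28.8 CPM from 233 UMIs and 11.3 CPM from 125 UMIs (−1.35, −1.68 to −1.03). Only 9.98% of PS19 astrocytes and 5.48% of PZKO astrocytes had a *C3* UMI, and after thinning to 1500 UMIs 4.07% and 1.63% did. Limited to astrocytes with at most 1% mitochondrial UMIs, *C3* was at 24.1 and 11 CPM (−1.14, −1.51 to −0.76). Within these, nuclei up to 0.25% had 19.8 and 15.6 CPM, with an interval that crossed 0 (−0.34, −0.98 to 0.33), and nuclei between 0.5% and 1% had 28.2 and 5.94 CPM (−2.25, −3.20 to −1.39). In a level summed over a class, fewer astrocytes with *C3* and less *C3* per astrocyte cannot be told apart.

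**Figure D5:**
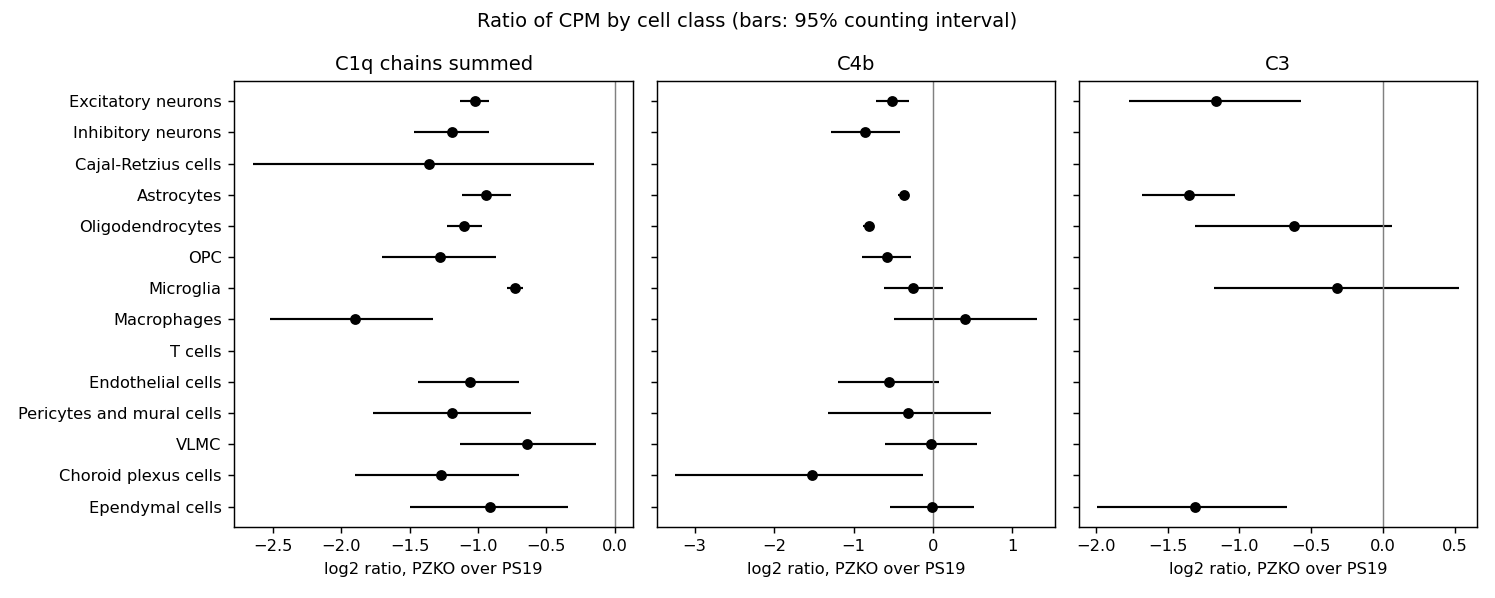
Log2 ratio of the level, PZKO over PS19, by cell class with 95% counting intervals, for the C1q chains summed, *C4b* and *C3*; classes with under 20 UMIs over both libraries are left blank. The C1q sum lies below 0 in every class shown, from −0.64 in VLMC to −1.90 in macrophages, *C4b* lies at −0.81 in oligodendrocytes and −0.37 in astrocytes, and *C3* at −1.35 in astrocytes.

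The receptors were counted mostly in microglia. Microglia held 92.3% of the *Itgam* UMIs of named classes in PS19 and 91.8% in PZKO, 88.2% and 87.2% of those of *C5ar1* and 79.3% and 81.7% of those of *C3ar1*, but 55.1% and 50.3% of those of *C1qa*. Over the 11 classes with at least 50 nuclei in each library (22 points, log2 of CPM + 10), the genes with the pattern most like *C1qa* were *C1qb* (Pearson r = 0.984), *C1qc*, *Ctsz*, *Ctss* and *Tyrobp*. *C1qb* and *C1qc* were most like the other C1q genes, *Ctss*, *Cd74* and *Tyrobp*. *C3ar1* was most like *Aif1* (r = 0.993), the gene of the microglial marker IBA1, then *Pld4*, *Gm47754*, *Ctse* and *Bin2*. *C5ar1* was most like *Pilra* (r = 0.999), *AU022793*, *Cnr2*, *Il1a* and *Olfr111*, and *Itgam* like *Csf2rb* (r = 0.996), *Myo1f*, *Ncf4*, *Slamf7* and *Gm2629*. *C4b* was most like *Scd2* (r = 0.945), *Cmtm5*, *Kcnj10*, *Hepacam* and *Tmem229a*, and *C3* like *Gm17359* (r = 0.927), *Gm28411*, *Gm47096*, *1700041G16Rik* and *Cd109*. Points of a library share its depth and background, so these values describe likeness only.

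The wider complement system was read from fixed lists of 58 genes, the 8 included, and 2 of them, *Mbl1* and *Cfd*, had no UMI. In microglia 28 of the 58 had at least 20 UMIs, all 8 members among them, with a median log2 ratio of −0.16. Of the 28 intervals 11 lay below 0, 3 above and 14 crossed it. The 8 members gave 6 of those below 0 and none of those above. Of all genes with at least 50 UMIs, 12.6% lay below 0 and 10.8% above. Among the inhibitors and regulators of the cascade, *Clu* (clusterin), which blocks the membrane attack complex, was highest in astrocytes at 2193 and 1018 CPM (−1.11, −1.14 to −1.07), and is also named by the study. *Vtn* (vitronectin) was highest in pericytes and mural cells at 1844 and 1081 CPM (−0.77, −0.95 to −0.60). *Cd55*, which speeds the decay of C3 convertases, was highest in ependymal cells at 153 and 95.3 CPM (−0.69, −1.12 to −0.26), and *Cd59a*, an inhibitor of the terminal complex, in endothelial cells at 191 and 132 CPM (−0.53, −0.84 to −0.23).

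Other regulators showed intervals that crossed 0 in their highest class. *Serping1* (the C1 inhibitor) was at 99.3 and 71.4 CPM in VLMC (−0.48, −0.99 to 0.05), and *Cr1l* (Crry) at 218 and 195 CPM in endothelial cells (−0.16, −0.43 to 0.10).

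Of the lectin pathway, *Masp1*, a protease that cleaves complement components, had 455 PS19 and 314 PZKO UMIs in oligodendrocytes (−0.71, −0.92 to −0.50), and *Colec12*, a scavenger receptor with a collectin domain, at 1236 and 1216 CPM in VLMC (−0.02, −0.16 to 0.11). The terminal components with at least 100 UMIs in the class of their highest level were *C7* and *Hc*, the C5 gene. *C7* was at 6.51 and 7.65 CPM in excitatory neurons (0.23, 0.05 to 0.42), and *Hc* at 59.0 and 65.3 CPM in ependymal cells (0.15, −0.45 to 0.74). Neither was lower in PZKO.

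The 7 membrane protein genes with sushi domains, several of which are known to restrain complement at synapses, had ratios between −0.08 and 0.22 in the class of their highest level. In OPC *Csmd1* was at 4929 and 5759 CPM (0.22, 0.18 to 0.27), *Csmd2* at 868 and 947 CPM (0.13, 0.03 to 0.23) and *Csmd3* at 3136 and 2969 CPM (−0.08, −0.13 to −0.03). In excitatory neurons *Sez6* was at 48.6 and 50.3 CPM (0.05, −0.02 to 0.12), *Sez6l* at 251 and 279 CPM (0.15, 0.12 to 0.18) and *Susd4* at 186 and 178 CPM (−0.06, −0.09 to −0.02). *Sez6l2* was at 308 and 321 CPM in oligodendrocytes (0.06, −0.02 to 0.13). Elsewhere the list spread more widely. In microglia 2 of its 7 intervals lay above 0 and none below, beside 10.8% and 12.6% of genes with at least 50 UMIs. In oligodendrocytes 4 of 7 lay above 0 and none below, beside 13.9% and 19.4%. In excitatory neurons 3 lay above and 3 below, beside 19.1% and 35.8%, and in astrocytes 1 and 2, beside 12.7% and 22.3%. In inhibitory neurons 4 lay above and 3 below, and the share over all genes was not computed there. *Csmd1* was at 18.0 and 40.9 CPM in microglia (1.18, 0.73 to 1.65) and at 24.2 and 48.6 CPM in oligodendrocytes (1.0, 0.77 to 1.24). Both levels lie far below those in OPC, and whether these UMIs came from free RNA was not tested. Genes over 50 kb, such as *Csmd1* (1643 kb), had a median log2 ratio of 0.09 in both classes.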

How the data were processed

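The labels and the methods describe nuclei isolation, 10x Genomics 3′ libraries and counting with Cell Ranger 7.0.1 on mm10, while the matrix headers name version 8.0.1. The authors deposited raw UMI counts per gene and nucleus; the SoupX correction, nucleus filter and DoubletFinder step of the methods are not in these counts. The methods also state that animals were processed separately, but the counts carry no animal label. No column of another sample was present.

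Nuclei with at least 600 UMIs, 300 genes and at most 5% mitochondrial UMIs were kept (10466 PS19, 10128 PZKO of 11469 and 10920, with 116488513 and 171167884 UMIs deposited), and the highest Scrublet scores were removed at 0.8% per 1000 nuclei. Both libraries were clustered together with scanpy 1.11.5 and leidenalg 0.10.2 (2000 variable genes without the complement lists, 30 components, 20 neighbours, resolution 1; microglia at 0.5). Clusters were named where at least 3 markers were detected, with a median marker log2 fold of at least 0.6, a limit set after the clusters were seen, as were the bins of mitochondrial share; a mixed immune cluster was split once.

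UMIs were summed per class and library. Log2 ratios are given from 20 UMIs over both libraries, with exact conditional binomial 95% intervals; levels have exact Poisson and shares exact binomial intervals, and a count of 0 allows up to 3 counts. The ratio and its interval were tested on simulated Poisson counts. The interval assumes such counts, so that test does not cover an uneven spread of UMIs over nuclei. The members and lists were chosen with earlier results of these data known. Every member is described; list genes with at least 100 UMIs in the class of their highest level were named there, together with the genes most like each member with at least 200 UMIs. One gene that this rule would name is not reported here. *Itgb2*, *C5ar2*, *Csf1r*, *Apoe* and the values of *Csmd1* outside OPC were added after their values were seen. Alternatives used edgeR 4.0.16 and DESeq2 1.42.0 scaling only, with no test from either.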

Additional observations from a re-analysis of the deposited data

Results flagged for a closer look

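*C3ar1* in microglia had counting intervals on opposite sides of 0 in different states, lower in PZKO in state 0 (log2 ratio −0.52) and higher in PZKO in the homeostatic-like state (0.72, from 29 PS19 and 91 PZKO UMIs). The difference between the states was not tested, since each state has 1 library per genotype. No other member had intervals on both sides of 0 among the states or the classes.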

How the results depend on the processing

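All 15 alternatives tried on the C1q sum in microglia kept it below 0, from −0.78 to −0.32, against −0.73 as reported. It moved outside its interval to −0.64 as a mean over nuclei, to −0.40 under a stricter filter (at least 1000 UMIs, 500 genes and at most 1% mitochondrial UMIs), and, in alternatives chosen after seeing the data, to −0.66 without state 1 and to −0.32 with at most 1% mitochondrial UMIs in the same clusters. Under either limit of 1% the number of members lower by at least 0.5 in microglia was 0, against 3. The median over the 8 genes ranged from −0.50 to −0.34. *C4b* in astrocytes moved to −0.29 with DESeq2 size factors. Requiring 200 UMIs in place of 50 lowered the share of all microglial genes called lower to 4.25%. *C5ar1* in microglia, at −0.45, lay between −0.56 and −0.09. *C4b* in microglia, at −0.25, lay between −0.36 and 0.01 and was below 0 in 13 of 15 alternatives. The ratios of the 8 genes in microglia were therefore not all below 0 in every alternative. Besides *C4b* in astrocytes, 12 ratios of single genes were recomputed, and 9 of 166 alternative values left the interval, all toward 0 and all for a C1q gene in microglia or *C4b* in oligodendrocytes (both −0.64 under the limits of 1%), and none turned a called direction. *C3* in ependymal cells had too few UMIs for a value under either limit of 1%. Among classes with at least 50 nuclei per library, 6 members had their highest share of nuclei with a UMI in microglia after thinning to 1500 UMIs, and 6 after thinning to 1000. No paired analysis was possible because each genotype has 1 library, and for the same reason no library could be left out.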
